A study of Mus musculus with 6 samples.

Results

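Transcription factors that set and keep the cell types of the stomach lining were followed in parietal cells, which secrete acid in the gastric gland, with and without a block of bone morphogenetic protein (BMP) signalling. The 10 genes were Gata4, Gata6, Foxa1, Foxa2, Foxa3, Foxq1, Klf4, Klf5, Sox2 and Spdef, chosen by name, and all 10 were found among the 23284 genes of the table. They were measured in 3 control libraries, whose genotype is labelled Transgenic-Tom, and 3 noggin libraries, labelled Transgenic-Tom-nog. The noggin mice carried H+/K+-Cre, H+/K+-Nog and Rosa26-tdTom, so that the promoter of the H+/K+ ATPase, the proton pump of parietal cells, drove both the recombinase and noggin, a secreted antagonist of BMPs. Cells with the red tdTomato (Tom) label were purified by flow cytometry from mice of both groups. The sources used here name no further allele of the control mice, no age, and do not say whether 1 animal or several gave a replicate, so the p-values cover only the variation among these 6 samples. Values are FPKM, fragments scaled to transcript length and to the fragments mapped, and the depth behind them is unknown.

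GATA4 and GATA6 are zinc finger factors, and the FOXA proteins are forkhead factors that open chromatin in cells derived from endoderm. Both families act in forming the gut and stay active in the adult stomach, where GATA proteins bind the promoters of the proton pump genes. SOX2 marks the foregut and stomach side of the gut tube and progenitor cells. KLF4 and KLF5 are zinc finger factors tied to epithelial differentiation and proliferation, respectively. FOXQ1 is needed for Muc5ac mucin in surface pit cells, and SPDEF, a factor of the ETS family, drives the maturation of mucus-secreting cells.

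Of these 10 factors, Spdef was higher in the noggin libraries of the sorted fraction, and the other 9 did not pass the test. Spdef was 3.79 times as high in the mean of noggin libraries as in the mean of controls. Foxa1 was 0.701 times the control mean and its groups did not overlap, but the difference missed the threshold. The remaining 8 had overlapping groups, with ratios of noggin to control means from 0.778 for Gata4 to 2.16 for Sox2. The test was limma's moderated test on log2(FPKM + 1), with p-values adjusted over all 10644 genes tested, and a gene was called at an adjusted p under 0.05. Fold changes below are on this scale, which understates the change of low genes. All 10 factors passed the filter of at least 1 FPKM in at least 3 libraries. Among all tested genes 1.75% were called higher and 0.695% lower, beside 1 and 0 of the 10 factors. An unadjusted p under 0.05 was found for 2 of the 10, and for 2839 of all 10644 tested genes. Groups did not overlap, with noggin higher, in 20.3% of tested genes, and with noggin lower in 18.0%, beside 1 and 1 of the factors. The median log2 fold change of the 10 was 0.19, and that of all tested genes -0.03.

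The libraries differ in ways that touch these values. The targeted transcript, Nog, was at 0.871 to 1.97 FPKM in the controls and at 2281 to 2734 FPKM in the noggin libraries. Total FPKM was 595736 to 669124 in controls and 797168 to 1188190 in noggin libraries. Noggin replicate 3 had 542 tested genes at 0, against 19 to 34 in the others. Noggin replicate 2 correlated more closely with the controls (Spearman 0.922 to 0.931 across genes) than with the other noggin libraries (0.846 and 0.911). Fold changes fell with transcript length (Spearman -0.554 across 10542 genes, which are not independent replicates), so each factor's length is given beside its result. Of the 12 parietal markers, all tested, 4 were called lower and 0 higher, beside 0.695% and 1.75% of all tested genes. In noggin libraries 7 lay wholly below the controls, beside 18.0% of tested genes, and the median log2 fold change was -0.97. The 4 were the transporters Slc26a7 (-1.41) and Slc4a2 (-1.09), the endocytic adaptor Hip1r (-1.15) and the nuclear receptor Esrrg (-1.19), with transcripts of 4179 to 6735 bases and limma adjusted p from 0.0294 to 0.04997. With the length correction they were at -0.89, -0.66, -0.58 and -0.67, and none of the 4 was called (adjusted p from 0.0692 to 0.205). The markers were detected in both groups: Atp4a and Atp4b, the proton pump subunits, were at 13385 to 16218 and 16877 to 21417 FPKM in the controls and at 5433 to 7619 and 21468 to 25184 FPKM in the noggin libraries. Chief cell markers summed to 60942 to 112019 FPKM in the controls and 131323 to 357848 FPKM in the noggin libraries. Clps and Pgc made up most of these sums. Of 6 chief markers tested 0 were called, and 5 were positive and 1 negative. Gif, at a log2 fold change of 0.89, was counted in both the parietal and the chief list. Pit cell markers summed to 22544 to 26958 FPKM in the controls and 24123 to 50710 FPKM in the noggin libraries. A level below is therefore that of the sorted fraction. Fewer cells of a type and less RNA per cell cannot be told apart.

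**Figure D1:**
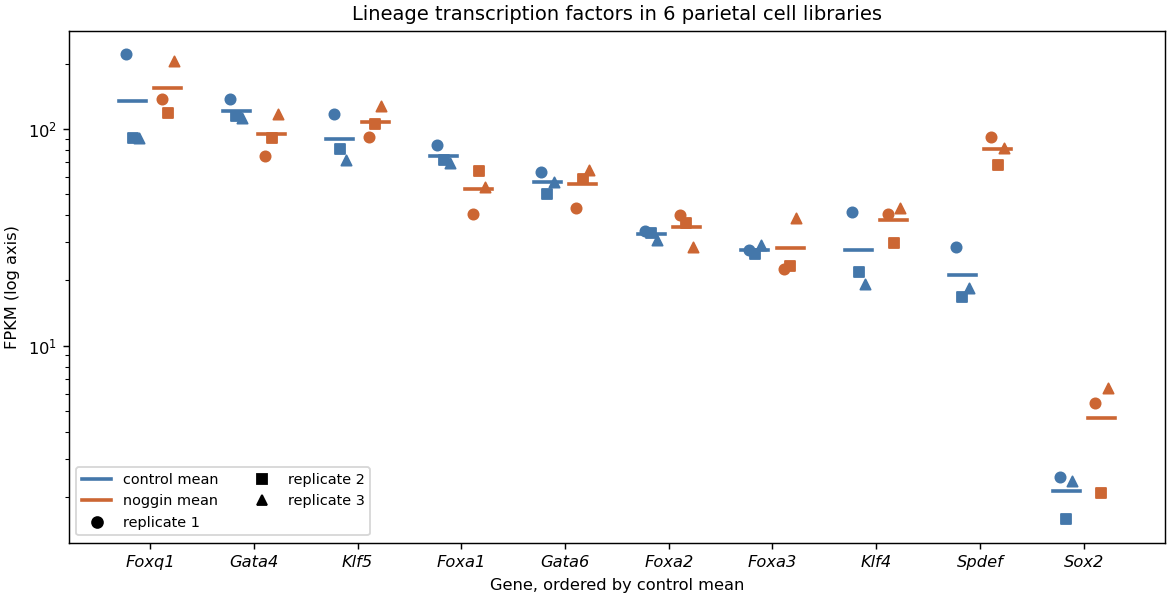
FPKM of the 10 factors in each library on a log axis, control in blue and noggin in orange, with replicates by marker and group means as bars. Spdef is at 16.7 to 28.5 FPKM in the controls and 68.2 to 92.0 FPKM in the noggin libraries, and Sox2 lies far below the other factors.

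By their control means the order of levels was Foxq1 at 134 ± 74.8 FPKM, Gata4 at 122 ± 13.5, Klf5 at 90.0 ± 23.98, Foxa1 at 75.3 ± 8.12, Gata6 at 56.8 ± 6.56, Foxa2 at 32.6 ± 1.56, Foxa3 at 27.7 ± 1.29, Klf4 at 27.5 ± 12.2, Spdef at 21.3 ± 6.38 and Sox2 at 2.14 ± 0.493 FPKM (mean ± SD, n = 3). FPKM is scaled to length, so levels were set side by side between genes. Fold changes still fell with transcript length, and the orders here carry no length correction. The ranges of neighbours overlapped from Foxq1 to Foxa1 and again from Foxa3 to Spdef, so those orders are not resolved. Foxa1 stood above Gata6, Gata6 above Foxa2, Foxa2 above Foxa3 and Spdef above Sox2 in all control libraries. Foxq1 and Gata4 lay at percentiles 93.8 and 93.2 of tested genes by control mean, and Sox2 at percentile 13.9. In noggin libraries Spdef moved from place 9 to place 4 of the 10, with a mean at percentile 87.0, against 68.9 in controls. Its noggin range overlapped that of Gata4 above it and lay wholly above that of Gata6, the next factor below.

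Spdef and Foxa1 were the factors whose groups did not overlap. The stretch before their start sites is shown for reference, with that of Foxa3 as a relative of Foxa1 whose groups overlapped. The sequences are from RefSeq (GRCm38.p6, the same assembly as mm10), minus strand, from 250 to 11 bases before the start site, written 5′ to 3′. The Foxa1 stretch ends at the base before its main GENCODE transcript (first base 57546121), but a second transcript, outside the basic set, starts at 57546916, and the stretch lies within that transcript, in none of its exons. The 3 stretches lie at chr17:27728962-27729201 (Spdef), chr12:57546122-57546361 (Foxa1) and chr7:19023550-19023789 (Foxa3). Capitals mark matches on either strand to any of 5 short motifs. The forkhead motif searched was TGTTTAC. For zinc finger factors of the Gata family the letters were GATAA. The box known from BMP response elements was searched as GGCGCC. For Smad proteins the palindrome was GTCTAGAC. The motif of the ETS family, to which SPDEF belongs, was searched as CCGGAA.
Spdef: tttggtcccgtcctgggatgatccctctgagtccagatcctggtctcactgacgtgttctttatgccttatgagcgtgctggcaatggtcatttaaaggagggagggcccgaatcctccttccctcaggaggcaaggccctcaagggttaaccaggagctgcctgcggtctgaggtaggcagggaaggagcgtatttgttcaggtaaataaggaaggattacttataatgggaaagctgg
Foxa1: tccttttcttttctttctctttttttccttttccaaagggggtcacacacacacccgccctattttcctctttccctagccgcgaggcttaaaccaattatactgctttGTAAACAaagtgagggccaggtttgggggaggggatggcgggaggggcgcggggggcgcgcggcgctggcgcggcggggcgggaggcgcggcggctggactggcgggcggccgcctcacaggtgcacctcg
Foxa3: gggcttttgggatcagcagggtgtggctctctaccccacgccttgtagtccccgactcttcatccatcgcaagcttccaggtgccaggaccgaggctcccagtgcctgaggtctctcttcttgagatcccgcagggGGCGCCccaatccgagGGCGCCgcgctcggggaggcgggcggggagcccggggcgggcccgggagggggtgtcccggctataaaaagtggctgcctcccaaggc
The Foxa1 stretch held 1 forkhead match, 141 bases before the RefSeq start site, as did 3.06% of the 32851 RefSeq windows of this length. The Foxa3 stretch held 2 matches to the BMP response box, and 9.08% of windows held at least 1. None of the 5 motifs was found in the Spdef stretch, which says only that these letters are not in this window. The shares of windows with the other motifs were 22.03% for the Gata family motif, 0.167% for the Smad palindrome and 11.2% for the ETS motif. Among windows not printed, 1 of Foxa2 held 1 ETS match. Another of Foxa2 held 1 match to the Gata family motif and 1 to the BMP response box. The Sox2 window held 1 ETS match, and the Klf4 window held none of the 5 motifs. Windows of 6 of the 10 factors were searched, and no matches overlapped. The remaining factors were left out of this search, so nothing is said here of their windows. These are matches of letters, not binding sites.

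Spdef (chromosome 17, 27714352 to 27728955 in mm10, minus strand) was at 28.5, 16.7 and 18.5 FPKM in control replicates 1, 2 and 3. In noggin replicates 1, 2 and 3 it was at 92.0, 68.2 and 81.8 FPKM. Every noggin library was above every control, and the lowest noggin value was that of replicate 2. The log2 fold change was 1.90 (SE 0.250, 95% interval 1.32 to 2.48, limma adjusted p = 0.0233), the 36th smallest p among all tested genes. An exact two-sided permutation test of Spdef alone gave p = 0.1, the lowest value possible with 3 libraries a group. Spdef has a median transcript length of 1708 bases, and tested genes within 20% of that length had a median log2 fold change of 0.26. With a correction for transcript length the fold change of Spdef was 1.66 (adjusted p = 0.0370), where 0.705% of tested genes were called higher.

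The rise of Spdef kept its sign in all 16 alternative settings, from 1.21 after rescaling to equal totals to 2.12 without control replicate 1. The call held in 11 of them, and adjusted p ran from 0.0130 to 0.129. It was lost without control replicates 1, 2 and 3 (adjusted p = 0.0660, 0.0784 and 0.129, at log2 fold changes of 2.12, 1.76 and 1.82) and without noggin replicate 1 (1.80, adjusted p = 0.0534). In these 4 fits 0.0376%, 0.366%, 0.0658% and 0.413% of all tested genes were called higher. Without a filter on low values the adjusted p was 0.0687, with 0.0404% of genes called higher. Without noggin replicate 3, the library with many genes at 0, the log2 fold change was 1.89 (adjusted p = 0.0334).

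**Figure D2:**
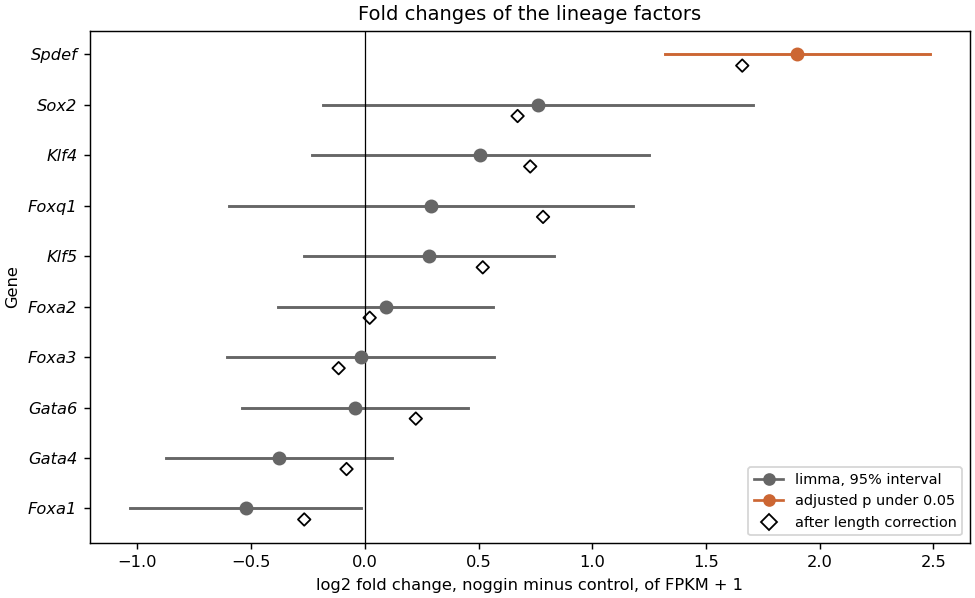
Log2 fold change of each factor, noggin minus control, on the scale of FPKM + 1, as points with limma's 95% interval, and after the length correction as open diamonds. Spdef at 1.90 is the only factor past an adjusted p of 0.05, and the interval of Foxa1 ends just below 0.

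Mucous neck cells, which secrete Muc6 mucin and the trefoil peptide Tff2, are among the mucous cells in which SPDEF is known to act, and most of their markers were higher in the same libraries. Of 7 neck markers 6 were tested, with a median log2 fold change of 2.18. Of these 6, 5 were called higher, beside 1.75% of all tested genes. The same 5 lay wholly above the controls, beside 20.3% of tested genes. Dmbt1 was at -0.60 and was not called (limma adjusted p = 0.374). The summed level of the 7 markers was 2485 to 3381 FPKM in the controls. It was 25883, 10790.5 and 13033 FPKM in the noggin replicates 1, 2 and 3. Noggin replicate 1 was the highest for both Spdef and this sum, and replicate 2 the lowest for both. Tff2 made up most of the sum. Of the 5 called markers, Tff2 and Agr2 were lowest among noggin libraries in replicate 2. Muc6, Gkn3 and Aqp5 were lowest in replicate 3, at 76.1, 545 and 31.3 FPKM. Tff2 was at 2300, 2267 and 1581 FPKM in the controls and 19699, 6807 and 9247 FPKM in the noggin libraries, a log2 fold change of 2.41 (adjusted p = 0.0478, SE 0.465). Agr2, a chaperone of mucus-secreting cells, differed by 2.12 on the log2 scale (adjusted p = 0.0294, SE 0.315), and Muc6 by 1.93 (adjusted p = 0.0443, SE 0.357). The call held in 6 of 16 alternatives for Tff2, 7 for Muc6 and 11 for Agr2, the length correction included for all 3. The part of neck cells in the rise of Spdef was not tested.

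**Figure D3:**
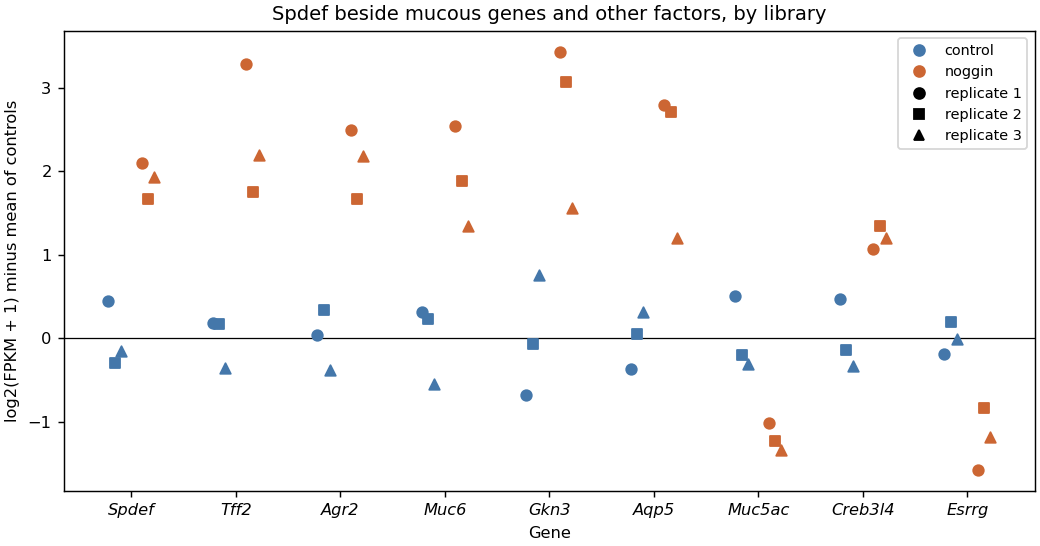
Log2(FPKM + 1) minus the mean of the controls, by library, for Spdef, the 5 neck cell genes called higher, the pit mucin Muc5ac and the factors Creb3l4 and Esrrg. Spdef and these 5 neck cell genes lie above every control in all 3 noggin libraries, and Muc5ac and Esrrg below. The neck marker Dmbt1, which was not called, is not shown.

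Foxq1 (chromosome 13, 31556134 to 31560976) was at 220, 91.0 and 90.8 FPKM in control replicates 1 to 3 and at 138, 118 and 206 FPKM in the noggin replicates 1 to 3. Control replicate 1 held the highest value of the 6, so the groups overlapped. The log2 fold change was 0.29 (SE 0.382, 95% interval -0.60 to 1.18, adjusted p = 0.646). The gene has 1 exon and a length of 4843 bases, at which genes had a median of -0.53, and the length correction gave 0.78 (adjusted p = 0.380). Muc5ac, the mucin that depends on Foxq1, was at 80.3, 49.0 and 45.2 FPKM in the controls and at 27.5, 23.4 and 21.6 FPKM in the noggin libraries. It was below every control in all noggin libraries, at a log2 fold change of -1.19 that missed the threshold (adjusted p = 0.0635, SE 0.261). The Muc5ac transcript has 8505 bases, and the length correction gave -0.57 (limma adjusted p = 0.3265). Of 7 pit markers tested, 0 were called by limma, and 6 were positive and 1 negative, with a median of 0.28. An unadjusted p under 0.05 was found for 2 of them, and for 2839 of all 10644 tested genes. The 2 were Muc5ac and Anxa10, which went opposite ways. Anxa10 lay wholly above the controls, at 0.72 (limma adjusted p = 0.1005).

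Klf4 (chromosome 4, 55527143 to 55532466) was at 41.5, 21.9 and 19.2 FPKM in the controls and at 40.3, 29.8 and 43.2 FPKM in the noggin libraries. Control replicate 1 lay within the noggin range and the other controls below it. Its log2 fold change was 0.51 (SE 0.319, 95% interval -0.23 to 1.25, adjusted p = 0.330). Klf5 (chromosome 14, 99298691 to 99315036) was at 117, 80.9 and 71.8 FPKM in the controls and at 92.0, 105 and 127 FPKM in the noggin libraries. Again control replicate 1 fell among the noggin values, and the fold change was 0.28 (SE 0.237, 95% interval -0.27 to 0.83, adjusted p = 0.463). Their transcripts have 3029 and 3102 bases, at which genes had medians of -0.21 and -0.23. Rescaling turned Klf4 to -0.19 and Klf5 to -0.43, and the length correction gave 0.73 and 0.52.

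Control replicate 1 was the highest control for 9 of the 10 factors, Foxa3 being the exception. The same library was the highest control for 28.4% of all tested genes. It lay above the mean of the controls by 0.85 for Foxq1, 0.66 for Klf4, 0.45 for Spdef and 0.41 for Klf5 on the log2 scale. Genes that tissue dissociation is known to induce, listed after the values were seen, gave a like count: it was the highest control for 8 of 10, the heat shock genes Hspa1a and Hspa1b being the exceptions. Their part in the levels of the factors was not tested. Without that library the fold changes were 2.12 for Spdef, 0.84 for Klf4 and 0.71 for Foxq1, and none of the 3 was called (adjusted p = 0.0660, 0.296 and 0.323).

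Gata4 (chromosome 14, 63198922 to 63271692) was at 137, 115 and 112 FPKM in control replicates 1 to 3 and at 75.0, 91.1 and 117 FPKM in the noggin replicates 1 to 3. Noggin replicates 1 and 2 lay below every control and replicate 3 among them. The log2 fold change was -0.38 (SE 0.213, 95% interval -0.87 to 0.12, adjusted p = 0.285). Gata6 (chromosome 18, 11052064 to 11085635) was at 63.4, 50.3 and 56.7 FPKM in the controls and at 43.3, 58.7 and 64.9 FPKM in the noggin libraries, with full overlap. Its log2 fold change was -0.04 (SE 0.214, 95% interval -0.54 to 0.45, adjusted p = 0.910). In both genes noggin replicate 1 was the lowest of its group and replicate 3 the highest. Both have long transcripts, at 3374 and 3234 bases, and like-length genes had medians of -0.28 and -0.26. With the length correction Gata4 was at -0.08 and Gata6 at 0.22. Rescaling, which moved the median of all tested genes to -0.63, put Gata4 at -1.09 (adjusted p = 0.0440) and Foxa1 at -1.23 (adjusted p = 0.0485), the only setting in which a factor was called lower, with 7.70% of all tested genes called lower.

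The balance of the 2 GATA factors within a library does not depend on the scaling of the library. The log2 ratio of Gata4 to Gata6 was 1.11, 1.19 and 0.99 in controls and 0.79, 0.63 and 0.86 in noggin libraries. The 3 noggin ratios lay below the 3 control ratios, with a mean difference of -0.34. Leaving out 1 library at a time gave -0.39 to -0.27, the length correction -0.30 and quantile normalization -0.48. Gata4 made up 66.5% to 69.6% of the summed GATA level in controls and 60.8% to 64.4% in noggin libraries. The genes that GATA factors bind, Atp4a and Atp4b, had log2 fold changes of -1.21 (adjusted p = 0.124, SE 0.409) and 0.22 (adjusted p = 0.814, SE 0.540).

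Foxa1 (chromosome 12, 57540628 to 57546916) was at 84.5, 72.0 and 69.3 FPKM in the controls and at 40.4, 64.0 and 53.9 FPKM in the noggin libraries. All noggin values were below all controls, and noggin replicate 2 was the nearest to them. The log2 fold change was -0.52 (SE 0.219, 95% interval -1.03 to -0.02), with an unadjusted p = 0.0450 and an adjusted p = 0.177 by limma. It was negative in all 16 alternatives, from -1.23 after rescaling to -0.27 with the length correction, where the adjusted p was 0.437. The transcript has 3191 bases, and like-length genes had a median of -0.24.

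Foxa2 (chromosome 2, 148042877 to 148046969) was at 33.9, 33.0 and 30.8 FPKM in the controls and at 40.2, 36.6 and 28.5 FPKM in the noggin libraries. The noggin libraries lay on both sides of the controls, and the log2 fold change was 0.09 (SE 0.203, 95% interval -0.38 to 0.56, adjusted p = 0.794). Foxa3 (chromosome 7, 19013284 to 19023538) was at 27.5, 26.4 and 29.0 FPKM in the controls and at 22.5, 23.3 and 38.6 FPKM in the noggin libraries. Noggin replicate 3 was the highest of all 6 and the other noggin libraries the lowest, at a log2 fold change of -0.02 (SE 0.253, 95% interval -0.61 to 0.57, adjusted p = 0.969). The controls agreed closely for both genes, with SDs of 1.56 and 1.29 FPKM, against 6.004 and 9.07 FPKM in the noggin libraries. The transcripts have 2099 and 2037 bases, and like-length genes had medians of 0.08 and 0.10.

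Within the FOXA family Foxa1 made up 57.9%, 54.8% and 53.6% of the summed level in controls and 39.2%, 51.6% and 44.6% in noggin libraries. Its log2 ratio to Foxa2 was 1.32, 1.13 and 1.17 in controls and 0.01, 0.81 and 0.92 in noggin libraries. Noggin ratios were again below all control ratios, with a mean difference of -0.63. That difference rests in large part on noggin replicate 1, in which the 2 genes had nearly equal levels, and was -0.34 without it. The Foxa1 transcript is the longer one (3191 against 2099 bases), and the length correction gave -0.29. The ratio of Foxa3 to Foxa2 ran from -0.32 to -0.09 in controls and was -0.84, -0.65 and 0.44 in noggin libraries. Klf4 to Klf5, the remaining pair, overlapped between groups, at -1.91 to -1.50 and -1.82 to -1.19. No test was run on these 4 ratios. How often the ratios of other gene pairs separate the groups was not measured.

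**Figure D4:**
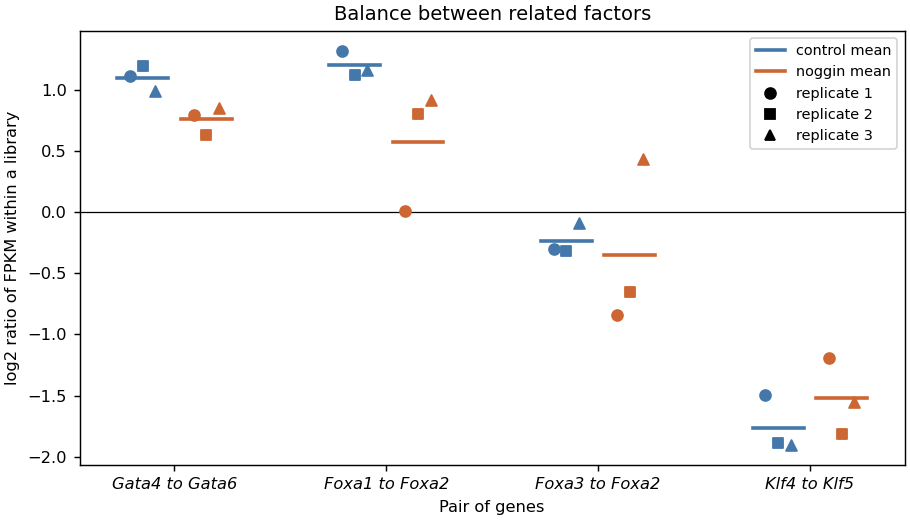
Log2 ratio of FPKM between related factors within each library, control in blue and noggin in orange, with bars at the group means. For Gata4 to Gata6 and Foxa1 to Foxa2 the noggin points lie below all control points, and for the other pairs the groups overlap.

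Sox2 (chromosome 3, 34650405 to 34652461) was the factor with the lowest level. It was at 2.49, 1.58 and 2.36 FPKM in the controls and at 5.42, 2.09 and 6.39 FPKM in the noggin libraries. Noggin replicates 1 and 3 were above every control and replicate 2 lay among them. The log2 fold change was 0.76 (SE 0.407, 95% interval -0.19 to 1.71, adjusted p = 0.264). Without noggin replicate 2 it was 1.15 (adjusted p = 0.0497), in a fit that called 11.2% of all tested genes higher. The transcript has 2057 bases, and like-length genes had a median of 0.09. Sox2 was positive in all 15 alternatives in which it could be tested, from 0.21 after rescaling. Its single exon lies inside Sox2ot, a longer noncoding transcript on the same strand, which was at 0.0815 to 0.273 FPKM in the controls and 1.28, 0.0596 and 0.703 FPKM in the noggin libraries. Among noggin libraries both genes were lowest in replicate 2, and reads of the 2 genes could be shared.

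Around these 10, other transcription factors of the stomach and endoderm gave a background. Of 40 listed, 26 were tested, 0 were called higher and 1 lower by limma, with a median log2 fold change of -0.22. An unadjusted p under 0.05 was found for 5 of the 26, beside 2839 of all 10644 tested genes. Esrrg, a nuclear receptor of parietal cells, fell from 121 ± 16.3 to 53.3 ± 13.8 FPKM (adjusted p = 0.0483, SE 0.234), a difference of -1.19 on the log2 scale. The difference was negative in all 16 alternatives and called in 5. The call held in 1 of the 6 fits without a library, that without noggin replicate 2, and the adjusted p ran from 0.0164 to 0.250 over all alternatives. The transcript has 5293 bases, and the length correction gave -0.67 (adjusted p = 0.1395). Creb3l4, a membrane-bound factor of secretory cells, was at 46.3, 30.1 and 26.1 FPKM in the controls and at 70.8, 85.7 and 77.9 FPKM in the noggin libraries. Its groups did not overlap, and at 1.21 (adjusted p = 0.0511, SE 0.244) it missed the threshold. Creb3l1, a close relative, had 0.79 (adjusted p = 0.126, SE 0.270). Insm1, a factor of endocrine cells, was at 0.306 to 0.746 FPKM in the controls and 1.21 to 4.15 FPKM in the noggin libraries (1.26, SE 0.381, adjusted p = 0.107). Its controls were all under the filter of 1 FPKM, so this gene, 1 of the 5 above, entered the test only through the noggin libraries and had to differ. Enteroendocrine markers summed to 444 to 2703 FPKM in the controls and to 1908 to 28715 FPKM in the noggin libraries. Gast made up most of the highest sums, at 2226 FPKM in control replicate 3 and 26026 FPKM in noggin replicate 2. In noggin replicate 1 Gast was at 22.3 FPKM, below every control, and it was not called (limma adjusted p = 0.644). Of 8 enteroendocrine markers tested, 8 were positive and 2 called higher, beside 1.75% of all tested genes. The part of enteroendocrine cells was not tested. The intestinal factors Cdx1 and Cdx2 were at or near 0, with at most 0.134 FPKM in any library, and were chosen for mention after their values were seen.

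Relatives by family were described in the same way. Of 19 listed GATA and forkhead relatives and GATA cofactors, 18 were in the table and 11 tested. None of these 11 was called by limma, 0 had an unadjusted p under 0.05, and the median was 0.03. Gata5, the third GATA factor of the gut, was at 16.1, 14.0 and 15.9 FPKM in the controls and at 9.93, 13.2 and 10.6 FPKM in the noggin libraries. Its values did not overlap, at a log2 fold change of -0.43 (adjusted p = 0.278, SE 0.237). The blood cell factor Gata2 was at 0 to 0.235 FPKM in the controls and 2.18, 0.470 and 4.16 FPKM in the noggin libraries, and it was named after its values were seen. Gata1, on the same list, went the other way, at 0.339 to 0.793 FPKM in the controls and 0 in every noggin library. Gata1 and Gata2 were both under the filter and not tested. Leukocyte markers summed to 6.95 to 8.19 FPKM in the controls and to 38.6, 57.0 and 282 FPKM in the noggin libraries. Cd74 alone was at 4.14 to 6.64 FPKM in the controls and 182 FPKM in noggin replicate 3. Cd3e and Cd79a were at most 0.336 FPKM in any library. Of the 5 leukocyte markers tested, 4 had all controls under the filter and entered only through the noggin libraries. None of the 10 markers was at 0 in all libraries of a group, and the part of leukocytes was not tested. Zfpm1, a GATA cofactor chosen with its values in view, was at 21.2 to 28.2 FPKM in the controls and 22.7 to 23.9 FPKM in the noggin libraries.

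The listed gene most like each factor across the 6 libraries, out of 97 compared by Pearson r of log2(FPKM + 1), is given as a description. Foxq1 and Klf4 were each other's nearest gene, at r = 0.914 (Spearman rho 0.943), and Foxq1 was also nearest to Klf5, at 0.907 (rho 0.886). Spdef was nearest to Nog at 0.975 (rho 0.943), the transgene that separates the groups. Foxa1 was nearest to the forkhead gene Foxn3 at 0.945 (rho 0.829), and Sox2 to Shh at 0.933 (rho 0.943). The 6 libraries fall into 2 groups, and both the group difference and single libraries enter these values.

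**Figure D5:**
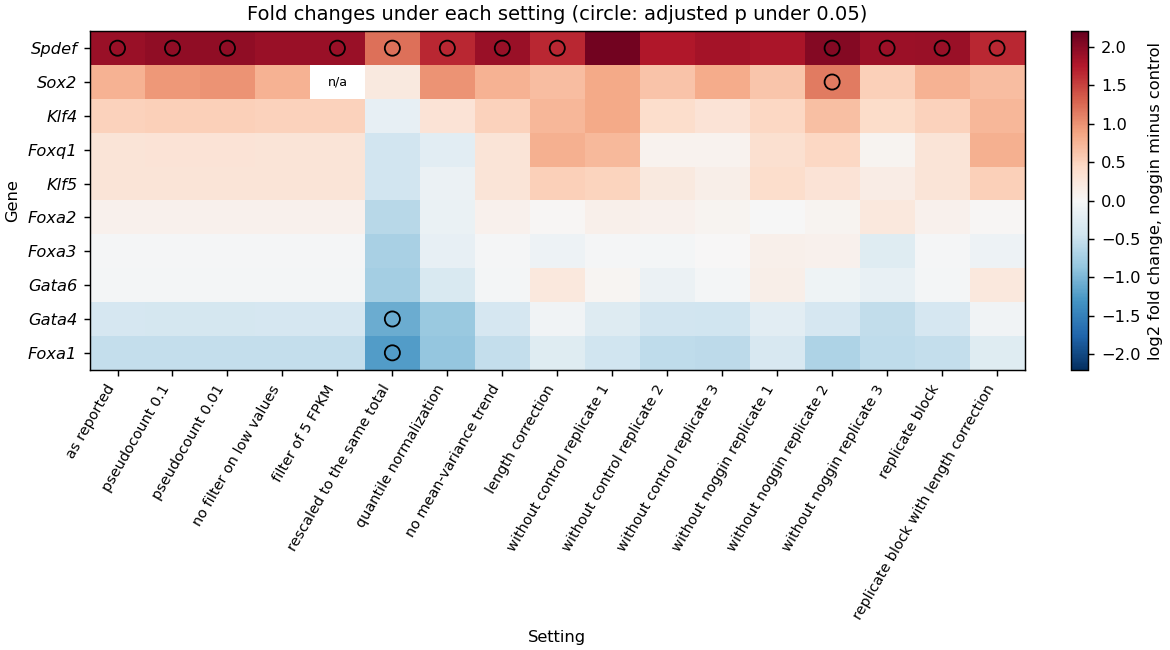
Log2 fold change of each factor, noggin minus control, in colour, under the reported fit and 16 alternatives, with circles where the adjusted p is under 0.05. Spdef is positive throughout and circled in the reported fit and 11 alternatives, and the column for rescaling is the one in which Gata4 and Foxa1 are circled.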

How the data were processed

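RNA of flow-sorted parietal cells was read as 50 base single-end reads from SMART-Seq Ultra Low Input libraries, per the labels' protocols. The authors deposited FPKM per gene for each of the 6 libraries. Base calling with bcl2fastq, FastQC 0.10.0 and the mm10 build are named in the submitters' processing notes. No aligner, quantifier or annotation is given in the sources used here. No source states that strand was kept. Depth per library is unknown, so no interval or limit that needs read counts is given.

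Values were transformed to log2(FPKM + 1), and genes that reached 1 FPKM in 3 or more libraries entered limma 3.58.1 (R 4.3.3, mean-variance trend, group as the only term, two-sided), with Benjamini-Hochberg adjustment over all 10644 tested genes. The code was tested on simulated data. Coordinates and lengths (median over basic transcripts) are from GENCODE M21 on GRCm38. The length correction removes a loess curve (span 0.5) (deviation from the 6-library mean against log length) from each library. The members and lists were chosen with earlier results of these data known. All 10 members are named. From each other list up to 4 genes were picked, called ones by size and then by unadjusted p. Not all picked genes are printed: Ghrl, Chga and Fcer1g, called higher, and Pnliprp2, not called, are among those left out. Nog, Atp4a and Atp4b are always given as checks. Some genes outside this rule are named too, Dmbt1 and Pgc among them. The alternatives were 2 pseudocounts, 2 filters, 2 scalings, no trend, the length correction, leaving out each library, and the replicate number as a block, alone and with the length correction.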

Additional observations from a re-analysis of the deposited data

How the results depend on the processing

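The counts of called genes depend on the processing, whereas Spdef was positive in every setting run. Over all tested genes 186 were higher and 74 lower. These counts were 85 and 26 with a pseudocount of 0.1, 72 and 21 with 0.01, 8 and 4 without a filter, 66 and 17 without the mean-variance trend and 75 and 25 with the length correction. Rescaling gave 130 higher and 820 lower, and quantile normalization 243 and 231. Leaving out 1 library gave 4 to 1187 higher and 5 to 825 lower genes. Of the 10 factors, 1 was called higher, 0 without a filter, and 0 to 2 when 1 library was left out (Spdef and Sox2 without noggin replicate 2). Rescaling called 2 lower, Gata4 and Foxa1, against 0. Of the other stomach factors, 1 was higher with a filter of 5 FPKM, and 0 to 1 without 1 library. The 1 lower, Esrrg, was 0 with either smaller pseudocount, without a filter, without the trend and with the length correction, and 0 to 5 without 1 library.

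Some signs turned. Rescaling gave -0.60 for Foxa2, -0.42 for Foxq1, -0.19 for Klf4 and -0.43 for Klf5, and quantile normalization -0.14 for Foxa2, -0.23 for Foxq1 and -0.13 for Klf5. The length correction turned Gata6 to 0.22, also with the block. Atp4b was at -0.50 with rescaling, -0.56 with quantile normalization and -0.18 with the length correction, with or without the block. Without 1 library Gata6 ran from -0.16 to 0.12, Foxa2 from -0.010 to 0.23 and Foxa3 from -0.26 to 0.12, and the Foxa3 to Foxa2 ratio from -0.51 to 0.13. The causes were not tested.

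Replicate numbers are shared by the groups, but same-numbered libraries did not deviate together: their correlations were 0.105, -0.141 and 0.005. With the replicate block 128 genes were higher and 32 lower, and with the block and the length correction 50 and 15. Spdef stayed called with the block (adjusted p = 0.0130), and the other stomach factors had 1 lower, or 0 with the length correction added. Sox2 could not be tested with a filter of 5 FPKM. Depth is unknown, and low factors such as Sox2 are the least certain.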
